A study of Mus musculus with 20 samples.

Results

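The urea cycle turns ammonia from amino acid breakdown into urea, and its 9 genes described here were measured in the right liver lobe of 20 male mouse fetuses. They comprise the 5 enzymes of the cycle (Cps1, Otc, Ass1, Asl and Arg1), Nags, which makes the activator of the first enzyme, the mitochondrial carriers Slc25a15 and Slc25a13, and the liver glutaminase Gls2. The genes were chosen by name for their place in the pathway, with earlier results of these data known. All 9 were found, of 26830 genes with a count in any fetus, and all 9 passed the filter on low counts and were among the 17573 genes tested. The fetuses were of the outbred strain CD-1 IGS at embryonic day 18.5, shortly before birth. Control dams carried 10 of them and dams under maternal nutrient restriction (MNR) the other 10, with 2 littermates from each of 5 litters per group. The labels name no agent or altered allele in either group, and the extent and timing of the restriction are not stated in the labels. Polyadenylated RNA was sequenced, and the deposited transcript counts of a fetus totalled 14925778 to 28016953.

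The cycle starts in the mitochondria of hepatocytes, where carbamoyl phosphate synthetase joins ammonia and bicarbonate, and ends in the cytosol, where arginase splits arginine into urea and ornithine. Ornithine then returns to the mitochondria. In adult liver, periportal hepatocytes carry most of the cycle together with the liver glutaminase, which frees ammonia from glutamine. Adult pericentral hepatocytes rebuild glutamine with glutamine synthetase. Glucagon, through cyclic AMP, and glucocorticoids are known inducers of the cycle's enzymes, which appear before birth.

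Arg1 and Gls2 mRNA rose in MNR livers, and the other 7 genes did not pass the test. Arg1 stood 1.52-fold and Gls2 1.37-fold higher, and for both no MNR litter fell as low as the highest control litter. Asl had a similar shift, 1.38-fold, with litters that did not overlap either, but it missed the threshold. The early enzymes of the cycle and the carriers lay closer to control. Of the 9 genes 2 were called, both higher, where 0.666% of all 17573 tested genes were called, 0.415% higher and 0.25% lower. At an unadjusted p under 0.05, 3 of the 9 were higher and 0 lower, where 9.95% of all tested genes were higher and 9.69% lower. DESeq2, which calls more genes in these data, called 3 of the 9 higher and 0 lower, where it called 4.19% of 15381 genes higher and 3.14% lower. Litters did not overlap, with MNR higher, for 3 of the 9 and 2.28% of all genes, and, with MNR lower, for 0 of the 9 and 2.23% of all genes. The log2 fold change was above 0 for 7 of the 9 and for 49.4% of all genes. The median log2 fold change of the 9 was 0.20, beside -0.00 over all tested genes.

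Values are CPM, counts scaled to the library total after TMM adjustment, with littermates summed so that the dam's litter counts as the replicate. Means are given ± SD over 5 litters. Each fold change, with its standard error (SE), was tested two-sided by the quasi-likelihood test of edgeR, and p-values were adjusted by Benjamini-Hochberg across the 17573 genes and called under 0.05. The liver is a mixture of hepatocytes and blood-forming cells at this age, and in bulk tissue fewer cells of a type and less RNA per cell cannot be told apart. Markers of hepatocytes and of red cell precursors were present in every litter. The 20 hepatocyte markers had a median log2 fold change of 0.03, with 0 called in edgeR, 1 at an unadjusted p under 0.05 and 1 in DESeq2. The 16 erythroid markers had a median of -0.09, with 0 called in edgeR, 1 at an unadjusted p under 0.05 and 0 in DESeq2. Of the hepatocyte markers 11 lay above 0 and 9 below. Of the erythroid markers 3 lay above 0 and 13 below, where 49.4% of all tested genes lay above 0. Summed levels of both lists overlapped between the groups, at 185560 to 215570 CPM in control and 179970 to 213440 CPM in MNR for hepatocyte markers and at 22545 to 35694 and 23344 to 31205 CPM for erythroid markers. Control fetus B_1 held transcripts of pancreatic acinar enzymes, at a summed 697 CPM. MNR fetuses B_1 and E_1 followed at 279.8 and 197 CPM, and the other 17 fetuses lay between 17.4 and 82.4 CPM. Markers of neutrophils moved with the groups: all 9 had a log2 fold change above 0, with 0 called in edgeR, 6 higher at an unadjusted p under 0.05 and 2 higher in DESeq2. Their summed level was 2252 to 2606 CPM in control litters and 2474 to 3593 CPM in MNR litters, and their mean log2 level did not overlap between the groups. The 8 megakaryocyte markers were also all above 0 (median 0.26) and the 8 stellate cell markers all below 0 (median -0.23), with 0 called in edgeR, 6 higher and 3 lower at an unadjusted p under 0.05, and 3 higher and 2 lower in DESeq2. The 8 markers of B cell precursors had a median of -0.43, with 7 below 0, 0 called in edgeR or DESeq2 and 4 lower at an unadjusted p under 0.05, and their summed level was 45.1 to 85.9 CPM in control litters and 42.8 to 59.5 CPM in MNR litters. Each of these markers had counts, and the part of these cells in the results on the 9 genes was not tested.

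**Figure D1:**
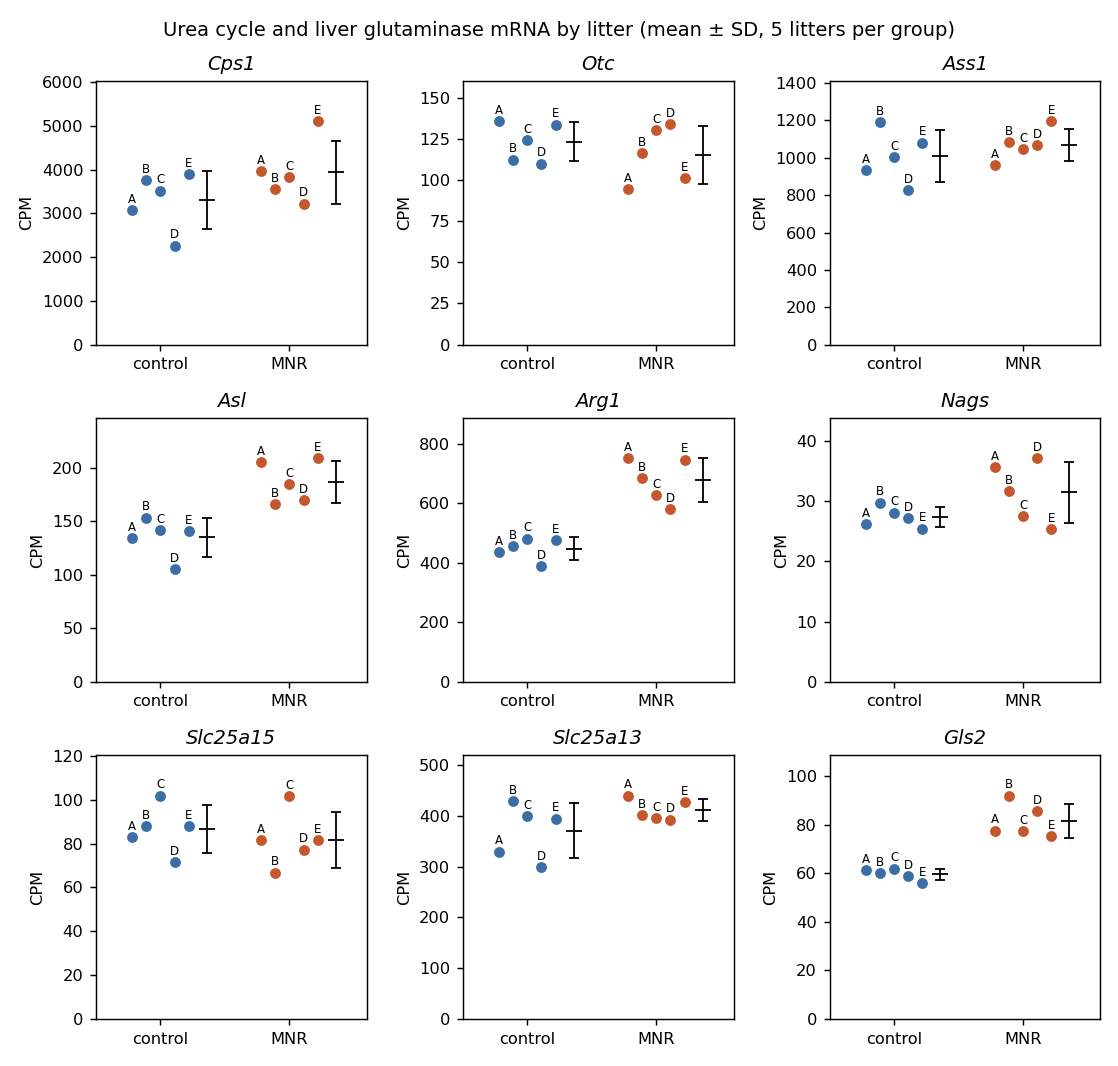
CPM (counts scaled to the library total, y axis, from 0) of the 9 genes in the 5 control litters (blue) and 5 MNR litters (red), each point a litter named by its letter, with the mean and SD in black. The MNR litters of Arg1 (581 to 751 CPM), Gls2 (75.4 to 92.0 CPM) and Asl (166 to 209 CPM) lie above all control litters, and those of the other 6 genes overlap with control.

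Promoter sequences of Gls2 and Arg1 are shown because these genes rose. Each is the 250 bases before the annotated start, read 5′ to 3′ on the strand of the gene from the mm9 genome. The motifs searched on both strands were TGACG, the core of the site that the cyclic AMP factor CREB binds, AGAACA, an arm of the glucocorticoid response element, and TTGCNNAA, the site of C/EBP factors. Capitals mark a match, and no match overlapped another.
Gls2, chr10:127631263-127631512, plus strand: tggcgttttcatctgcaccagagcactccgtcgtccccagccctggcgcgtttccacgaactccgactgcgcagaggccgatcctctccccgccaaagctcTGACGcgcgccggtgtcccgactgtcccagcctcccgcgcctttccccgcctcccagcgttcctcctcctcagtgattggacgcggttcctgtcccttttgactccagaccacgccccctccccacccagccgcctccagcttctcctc
Arg1, chr10:24647277-24647526, minus strand: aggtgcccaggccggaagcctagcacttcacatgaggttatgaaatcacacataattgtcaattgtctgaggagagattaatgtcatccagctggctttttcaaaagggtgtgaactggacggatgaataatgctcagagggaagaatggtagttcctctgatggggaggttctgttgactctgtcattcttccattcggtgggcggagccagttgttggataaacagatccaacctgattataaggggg

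The Gls2 window held TGACG 149 to 145 bases before the start, and the window of Arg1 held none of the 3 motifs. The windows also differed in base composition, with 66.8% G and C for Gls2 and 46.8% for Arg1. Elsewhere among the members, Nags and Slc25a13 held TGACG and Asl held AGAACA. Over 14785 tested protein-coding genes, 24% of such windows held TGACG, 11.3% AGAACA and 7.99% TTGCNNAA. A match in so short a window is a description of the letters only.

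Nags and Cps1, which open the cycle, did not pass the test. Nags, the N-acetylglutamate synthase on chromosome 11 (102006827 to 102010791, plus strand, mm9), was the least abundant member. Its control litters A to E held 26.2, 29.7, 28.1, 27.1 and 25.4 CPM, and the MNR litters held 35.6, 31.7, 27.4, 37.1 and 25.4 CPM. Litters A, B and D of the MNR group lay above all control litters, while C and E lay within or just under the control range. The log2 fold change was 0.20 with SE 0.10 (adjusted p = 0.283 by edgeR). Nags shares 443 exon bases, 15.6% of its exons, with Gm11586 on the opposite strand, and that gene held 211 counts over all fetuses beside 12155 for Nags.

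Cps1, the carbamoyl phosphate synthetase that sets the pace of the cycle, lies on chromosome 1 at 67169600 to 67277833 on the plus strand. Control litters A to E held 3067, 3759, 3519, 2264 and 3897 CPM, and MNR litters 3969, 3553, 3832, 3223 and 5104 CPM. Control litter D was low and MNR litter E high, and the groups overlapped. The log2 fold change was 0.25 with SE 0.16 (adjusted p = 0.404 by edgeR), with a 95% interval of -0.09 to 0.60 that leaves a rise of the size seen for Asl within it. Cps1 made up 54.5% to 61.9% of the summed CPM of the 9 genes in control litters and 55.9% to 64.1% in MNR litters.

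Otc, the ornithine transcarbamylase that forms citrulline, lies on the X chromosome at 9829431 to 9898150 on the plus strand, so each male fetus carries a single copy. Its mean was 123 ± 11.8 CPM in control litters and 115 ± 17.5 CPM in MNR litters. Control litters lay between 110 and 136 CPM, and the MNR litters spread wider, from 94.4 CPM in litter A to 134 CPM in litter D. The log2 fold change was -0.10 with SE 0.10 (adjusted p = 0.654 by edgeR), and its 95% interval of -0.32 to 0.13 lay below the change of Arg1.

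The cytosolic enzymes follow. Ass1, the argininosuccinate synthase on chromosome 2 (31325727 to 31376192, plus strand), joins citrulline with aspartate. It stood at 1008 ± 139 CPM in control litters and 1070 ± 85.0 CPM in MNR litters (log2 fold change 0.09 with SE 0.10, and adjusted p = 0.667 by edgeR). Control litters ranged from 828 to 1191 CPM and MNR litters from 959 to 1196 CPM, and the MNR litters lay within or just above the control range.

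Asl, the argininosuccinate lyase on chromosome 5 (130487128 to 130501002, minus strand), releases arginine and fumarate. Control litters A to E held 134, 154, 142, 105 and 141 CPM, and MNR litters 206, 166, 185, 170 and 209 CPM. The lowest MNR litter, B, lay above the highest control litter, also B. The log2 fold change of 0.47 (SE 0.10) had an edgeR adjusted p = 0.0582, over the threshold, at an unadjusted p = 0.000662. Asl passed in 8 of 26 other analyses of these counts, among them DESeq2 (adjusted p = 0.00139), limma with the 20 fetuses as libraries (adjusted p = 0.0226) and edgeR without control litter B (adjusted p = 0.0243) or MNR litter D (adjusted p = 0.0379).

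Arg1 (ENSMUSG00000019987), the liver arginase that ends the cycle, lies on chromosome 10 at 24635014 to 24647276 on the minus strand. The control litters A to E held 436, 456, 481, 388 and 476 CPM, whereas the MNR litters held 751, 685, 627, 581 and 747 CPM. The gap between the groups, from 481 to 581 CPM, was wider than the span of the control litters. The log2 fold change was 0.60 (SE 0.09, 95% interval 0.41 to 0.79, adjusted p = 0.0257 by edgeR), and Arg1 ranked 11th by p among genes higher in MNR. Single fetuses did not overlap either: the control fetuses lay at 373 to 509 CPM with a median of 458, and the MNR fetuses at 539 to 919 CPM with a median of 652.

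The carriers that link the mitochondrial and cytosolic steps did not pass. Slc25a15, which exchanges ornithine for citrulline (chromosome 8, 23486026 to 23509093, minus strand), stood at 86.5 ± 10.99 CPM in control litters and 81.7 ± 12.7 CPM in MNR litters (log2 fold change -0.08 with SE 0.11, and adjusted p = 0.736 by edgeR). Litter C was the highest of both groups, at 102 CPM in each, although the letter names different dams. Slc25a13, or citrin, exports the aspartate that Ass1 uses (chromosome 6, 5991219 to 6167173, minus strand). It stood at 370 ± 53.9 CPM in control litters and 411 ± 21.3 CPM in MNR litters (log2 fold change 0.15 with SE 0.10, and adjusted p = 0.42 by edgeR). Its MNR litters lay close together, at 392 to 440 CPM, inside or just above a control range of 299 to 429 CPM.

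Gls2 (ENSMUSG00000044005), on chromosome 10 at 127631513 to 127647060 on the plus strand, lies outside the cycle and supplies it with ammonia. The control litters A to E held 61.2, 59.9, 61.9, 58.9 and 56.1 CPM, and the MNR litters 77.5, 92.0, 77.3, 85.7 and 75.4 CPM. The control litters lay close together and all MNR litters above them. The log2 fold change was 0.45 (SE 0.06, 95% interval 0.32 to 0.59, adjusted p = 0.0257 by edgeR), and Gls2 ranked 3rd by p among genes higher in MNR. Gls2 shares 97 exon bases, 2.79% of its exons, with Spryd4 on the opposite strand, and that gene held 15899 counts over all fetuses beside 29152 for Gls2. The labels do not say whether the counting used strand, and without it reads from that stretch cannot be assigned.

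The calls of Arg1 and Gls2 rested on the full set of litters, while their size did not. Over 26 other analyses the log2 fold change stayed between 0.54 and 0.68 for Arg1 and between 0.41 and 0.50 for Gls2, and both passed in 18 of them. Without control litter A, C, D or E, or without MNR litter A, B or E, neither passed, at adjusted p = 0.0509 to 0.0799 for Arg1 and 0.0509 to 0.0711 for Gls2 (edgeR alone was run here, and 3 or 4 of the 9 genes had an unadjusted p under 0.05). With fetus 1 of each litter alone, edgeR gave log2 fold changes of 0.54 for Arg1 (adjusted p = 0.215) and 0.42 for Gls2 (adjusted p = 0.347), with 3 of the 9 at an unadjusted p under 0.05. With the erythroid marker level of each litter in the model both passed, at 0.56 (adjusted p = 0.0218 by edgeR) for Arg1 and 0.46 (adjusted p = 0.0227 by edgeR) for Gls2. With the hepatocyte marker level the values were 0.56 and 0.46 (edgeR adjusted p = 0.0395 for both), and without control fetus B_1 they were 0.60 (adjusted p = 0.0152 by edgeR) and 0.42 (adjusted p = 0.023 by edgeR). Without all 3 fetuses with the most pancreatic transcripts, an alternative added after seeing the data, they were 0.62 and 0.44 (edgeR adjusted p = 0.0142 for both). There Asl passed as well at 0.50 (edgeR adjusted p = 0.0371). Asl also passed without control fetus B_1 (edgeR adjusted p = 0.0383) and with the erythroid marker level (edgeR adjusted p = 0.0324), but not with the hepatocyte marker level (edgeR adjusted p = 0.0626).

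**Figure D2:**
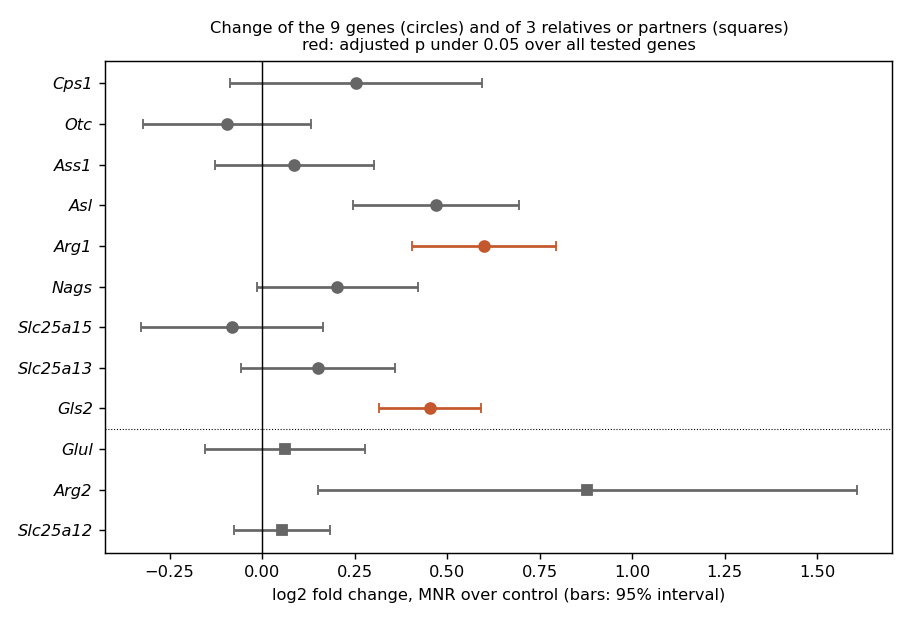
Log2 fold change of MNR over control (x axis) with its 95% interval for the 9 genes (circles) and for 3 relatives or partners (squares), in red where the adjusted p passed 0.05. Arg1 (0.60) and Gls2 (0.45) are the red points, Asl (0.47) lies beside them, and the intervals of the other 6 members include 0.

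Relatives of Arg1 and Slc25a13 gave no call. Arg2, the mitochondrial arginase, was low, at 0.879 ± 0.463 CPM in control litters and 1.59 ± 0.406 CPM in MNR litters (log2 fold change 0.88 with SE 0.33, and adjusted p = 0.177 by edgeR), from 498 counts over all 20 fetuses. Arg2 also shares 20% of its exon bases with Vti1b on the opposite strand, which held 6700 counts. Slc25a12, the aspartate carrier of brain and muscle, stood at 30.7 ± 1.96 and 31.9 ± 1.81 CPM (log2 fold change 0.05, adjusted p = 0.659 by edgeR). A search of annotated coding transcripts found no close copy of any of the 9 genes, apart from the 97 bases that Gls2 shares with Spryd4 and 59 bases of Asl that match Oscp1 at 89.8% identity.

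The 3 ratios within a litter compared pairs of roles without any scaling between libraries. Their numerators, Arg1, Asl and Gls2, are the 3 members whose litters did not overlap, so the ratios reuse those values and are not separate support. The Arg1 to Cps1 ratio, the last enzyme of the cycle over the first, was 0.139 ± 0.0204 in control and 0.174 ± 0.0194 in MNR, a log2 difference of 0.33 (two-sided exact permutation test over 5 against 5 litters, p = 0.0317, adjusted p = 0.0397 over 3 ratios). The groups overlapped, because control litter D, at 0.172, lay within the MNR range of 0.146 to 0.193. It passed without control litter D or MNR litter E, and did not pass when any of the other 8 litters was left out (adjusted p = 0.0556 to 0.0714, exact permutation test).

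The Asl to Ass1 ratio, over the steps that release and form argininosuccinate, was 0.134 ± 0.00751 in control and 0.176 ± 0.0239 in MNR. Every MNR litter, from 0.153 to 0.215, lay above every control litter, from 0.127 to 0.144. The log2 difference was 0.38, with p = 0.00794 in the exact permutation test (no smaller value is possible with 5 litters a group) and an adjusted p = 0.0238. It passed in all 15 alternatives run for it, including each of the 10 tests without a litter. Leaving a litter out of groups that do not overlap keeps them apart, so those 10 results add no separate support.

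The Gls2 to Glul ratio set glutamine breakdown against glutamine synthesis. Glul, the glutamine synthetase of pericentral hepatocytes, stood at 536 ± 70.9 CPM in control litters and 560 ± 51.5 CPM in MNR litters (log2 fold change 0.06 with SE 0.10, and adjusted p = 0.77 by edgeR). The ratio was 0.113 ± 0.0185 in control and 0.147 ± 0.0166 in MNR, a log2 difference of 0.38 (exact permutation p = 0.0397, adjusted p = 0.0397), and control litters B and C overlapped with the MNR range. The call held without control litter C or MNR litter E and was lost on leaving out any of the other 8 litters, at adjusted p = 0.0556 to 0.0714 by exact permutation. It was also lost without control fetus B_1 (0.34, adjusted p = 0.0635 by exact permutation) and without the 3 fetuses with the most pancreatic transcripts (0.32, adjusted p = 0.0794 by exact permutation).

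**Figure D3:**
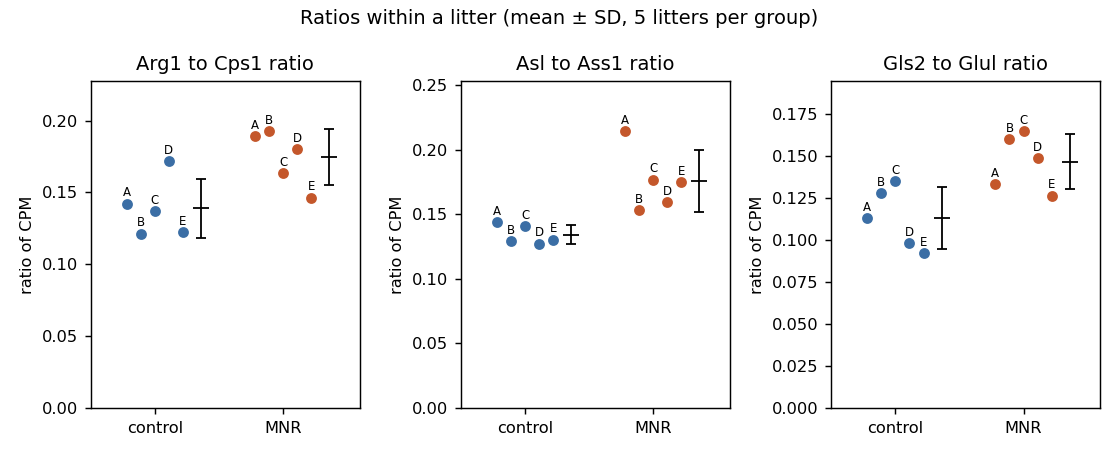
Ratio of CPM values within a litter (y axis, from 0) for Arg1 over Cps1, Asl over Ass1 and Gls2 over Glul in control (blue) and MNR (red) litters, named by letter, with the mean and SD in black. The Asl to Ass1 ratio separates the groups (0.127 to 0.144 against 0.153 to 0.215), while single control litters reach into the MNR range of the other ratios.

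Per kilobase of annotated exon the members spanned a wide range of levels, in an order that was the same in both groups. The length joined the exons of all annotated transcripts of a gene, noncoding forms included. Counts were summed over these transcripts, and how reads matching several were treated was not given. How far the order depends on these choices was not tested. In control litters Cps1 held 594 ± 119 CPM per kilobase of exon, Ass1 437 ± 60.1, Arg1 303 ± 25.5 and Slc25a13 118 ± 17.2. Asl, Otc and Slc25a15 followed at 29.6 ± 3.96, 29.0 ± 2.79 and 25.1 ± 3.18 CPM per kilobase, then Gls2 at 17.2 ± 0.661 and Nags at 9.62 ± 0.593. The ranges of Cps1 and Ass1 over control litters overlapped, as did those of Asl and Otc, and of Otc and Slc25a15. Whether these neighbours differed within a litter was not tested. In MNR litters Arg1 reached 460 ± 50.3 CPM per kilobase, beside 464 ± 36.8 for Ass1, and these neighbours then overlapped. Asl, at 41.0 ± 4.34 CPM per kilobase in MNR, no longer overlapped with Otc at 27.2 ± 4.12. Gls2 at 23.5 ± 2.02 overlapped in MNR with Slc25a15 at 23.7 ± 3.69. Among 17573 tested genes in control, Cps1 ranked 73rd, Ass1 88th and Arg1 123rd by this measure, and Nags 4653rd.

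The spread between littermates was about as wide as that of litter means, or wider, for several members. The SD within litters on the log2 CPM scale was 0.30 for Cps1, 0.27 for Gls2 and 0.19 for Arg1. The SDs of the litter means were 0.32, 0.06 and 0.13 in control and 0.23, 0.15 and 0.14 in MNR. A mean of 2 fetuses varies less than a single fetus, so these SDs are not on an equal footing. The tight control litters of Gls2 thus averaged over fetuses that lay at 51.3 to 68.1 CPM. MNR fetuses of Gls2 lay at 55.4 to 99.8 CPM, overlapping with them. MNR fetuses A_1, C_2 and E_1, at 55.4, 64.4 and 66.7 CPM, lay within the range of the control fetuses. The widest gap was in MNR litter A for Gls2, Asl, Arg1 and Nags. There fetus A_1 held 55.4 CPM of Gls2 and 586 CPM of Arg1, and its littermate A_2 held 99.8 and 919 CPM. In MNR litter D, fetus D_1 held 2417 CPM of Cps1 and D_2 held 4684 CPM.

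**Figure D4:**
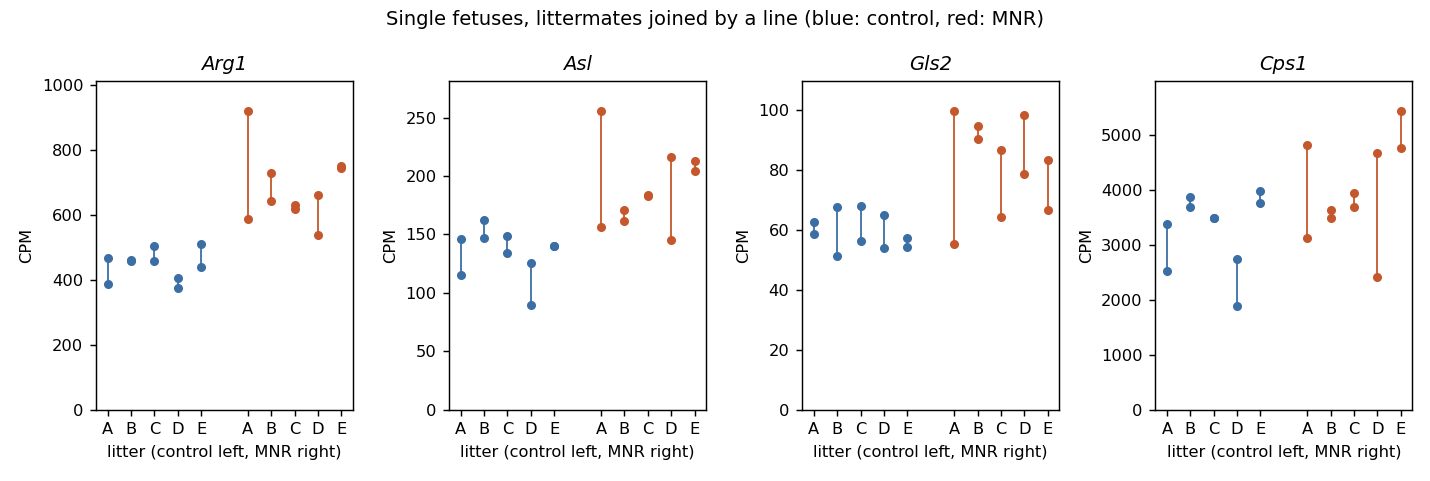
CPM (y axis, from 0) of Arg1, Asl, Gls2 and Cps1 in single fetuses, with littermates of a litter (x axis) joined by a line, control in blue and MNR in red. Arg1 separates all 20 fetuses (373 to 509 against 539 to 919 CPM). For Gls2, MNR fetuses A_1, C_2 and E_1 lie in the control range.

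Deviations of single fetuses from their group's mean were alike for 5 members. These were Cps1, Asl, Slc25a13, Ass1 and Arg1, a set picked after the correlations were seen, whose 10 pairs had Pearson correlations of 0.63 (Ass1 with Arg1) to 0.91 (Cps1 with Asl) over 20 fetuses of 10 litters. Gls2, Nags and Otc stood apart from them. Gls2 had correlations of 0.15 with Cps1 and 0.39 with Arg1, and its highest were 0.51 with Nags and 0.46 with Otc. Otc had correlations of -0.22 to 0.10 with the set. Over all 36 pairs the median was 0.35, and 28 were above 0. The same centred values of Cps1 had a correlation of 0.81 with the mean of the hepatocyte markers and -0.80 with that of the erythroid markers, those of Arg1 0.52 and -0.59, and those of Gls2 0.10 and 0.02. Fetuses of a litter share a dam and all values share a library scale, and the part of cell composition in these correlations was not tested.

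**Figure D5:**
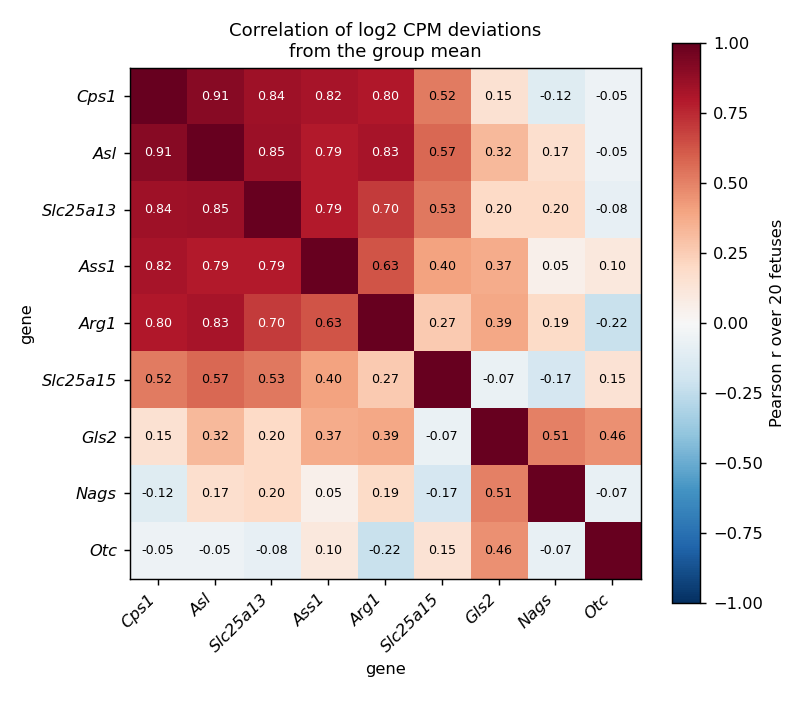
Pearson correlation (colour, -1 to 1) over 20 fetuses of log2 CPM deviations from the group mean for each pair of the 9 genes on both axes. The block of Cps1, Asl, Slc25a13, Ass1 and Arg1 holds values of 0.63 to 0.91, and no pair with Gls2, Nags or Otc exceeds 0.51.

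Among 8485 other named genes with a mean of at least 10 CPM, those most like Arg1 in these deviations were Furin (r = 0.86), Tob2 (0.85), Mttp (0.84), Slc37a4 (0.84) and Nr1i2 (0.84). Most like Gls2 were Kdm4a (0.76), Nav2 (0.73), Gyltl1b (0.73), Adipor2 (0.73) and Shank2 (0.73). Among those most like Cps1 were Agpat3 (0.92), Man2a1 (0.91), Tmem106b (0.90) and March6 (0.89). The median r over all 8485 genes was 0.025 for Arg1, 0.023 for Gls2 and 0.004 for Cps1. The named genes were picked as the highest of many values, over fetuses that share litters. The part of cell composition in these correlations was not tested.

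Several members have more than a single annotated transcript, and the deposited counts were spread over them, so reads of shared exons cannot be assigned to a form. The coding transcript ENSMUST00000044776 of Gls2 held 19.6 ± 0.594% of its counts in control litters and 19.3% in MNR. The 2 transcripts of Slc25a13 held 50.2% and 49.8% of its counts, and 4 overlapping transcripts of Asl held 16.8% to 20% each. Cps1, Arg1 and Slc25a15 have a single transcript in this annotation. When each gene was counted by its most abundant transcript alone, Arg1 and Gls2 were again the members that passed in edgeR. For Gls2 that transcript is ENSMUST00000159440, annotated as a target of nonsense-mediated decay, with 19.5% of its counts beside 19.4% for the coding form.

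The wider pathway was read from lists of related genes, with edgeR calls beside the background of 0.415% higher and 0.25% lower, DESeq2 calls beside 4.19% higher and 3.14% lower, and unadjusted p-values under 0.05 beside 9.95% higher and 9.69% lower. Of 18 genes that serve the cycle, 1 rose, 0 fell and 17 did not pass, with a median log2 fold change of 0.06. At an unadjusted p under 0.05 in edgeR, 5 of the 18 were higher and 1 lower, and DESeq2 called 3 higher and 0 lower. Gpt, the cytosolic alanine aminotransferase, was the gene that rose, from a control range of 4.61 to 9.99 CPM to an MNR range of 11.6 to 13.9 CPM (log2 fold change 0.92 with SE 0.18, and adjusted p = 0.0437 by edgeR). A further 2, named after their values were seen, had litters that did not overlap: the aspartate aminotransferase Got1 at 0.83 (adjusted p = 0.0576 by edgeR) and Sirt3, a mitochondrial deacetylase, at 0.30 (adjusted p = 0.0587 by edgeR). With Gpt, litters did not overlap, with MNR higher, for 3 of the 18 and for 2.28% of all genes. With MNR lower these shares were 0 of the 18 and 2.23%. The mitochondrial carbonic anhydrase Car5a, which supplies bicarbonate to Cps1, stood at 40.8 CPM in control litters and 45.5 CPM in MNR litters (adjusted p = 0.714 by edgeR).

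Genes that use arginine and ornithine gave 0 calls among 17 tested in edgeR, with 2 higher and 4 lower at an unadjusted p under 0.05 and 1 higher and 0 lower in DESeq2. Their median log2 fold change was -0.14. Slc7a2, the arginine transporter of liver, stood at 277 ± 53.8 CPM in control litters and 436 ± 92.8 CPM in MNR litters (log2 fold change 0.66 with SE 0.16, and adjusted p = 0.0731 by edgeR), with overlapping litters. Its relative Slc7a1 stood at 27.1 ± 3.51 and 22.3 ± 1.69 CPM (log2 fold change -0.28, adjusted p = 0.121 by edgeR).

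Genes of glutamine and glutamate handling also gave 0 calls among 19 tested in edgeR, with 0 higher and 5 lower at an unadjusted p under 0.05 and 0 higher and 1 lower in DESeq2. Their median log2 fold change was -0.10, below that of the 9 members. The amino acid transporter Slc7a5 had a log2 fold change of -0.35 (adjusted p = 0.123 by edgeR), and the ammonia channel Rhbg, which the pericentral list also holds, one of -0.72 with SE 0.25 (adjusted p = 0.144 by edgeR), from 10.1 ± 3.12 to 6.12 ± 2.09 CPM.

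Of 17 transcription factors, coactivators and hormone receptors known to act on the cycle's genes, 1 rose, 0 fell and 16 did not pass. Their median log2 fold change was 0.14. Cebpb, a C/EBP factor that hormones of fasting induce, was higher in every MNR litter (32.7 to 41.9 CPM) than in any control litter (24.7 to 30.2 CPM), with a log2 fold change of 0.49 with SE 0.08 (adjusted p = 0.0286 by edgeR). At an unadjusted p under 0.05 in edgeR, 7 of the 17 were higher and 1 lower, and DESeq2 called 7 higher and 1 lower. The hepatic relative of Cebpb, Cebpa, stood at 307 CPM in control litters and 299 CPM in MNR litters (adjusted p = 0.886 by edgeR). The glucagon receptor Gcgr stood at 62.5 and 51.4 CPM (adjusted p = 0.56 by edgeR). The glucocorticoid receptor Nr3c1 stood at 88.3 and 113 CPM, with overlapping litters (log2 fold change 0.35, adjusted p = 0.0806 by edgeR).

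Lists of periportal and pericentral markers were also read, and whether such zones exist in these fetal livers was not tested. Of 12 periportal genes outside the members 1 rose, 0 fell and 11 did not pass, and DESeq2 called 2 higher and 0 lower. At an unadjusted p under 0.05 in edgeR, 5 of the 12 were higher and 1 lower. The median log2 fold change was 0.25 and 10 of the 12 lay above 0. The gene that rose was Hal, the histidine ammonia-lyase, at 0.58 with SE 0.11 (adjusted p = 0.0454 by edgeR), from 54.8 to 60.5 CPM in control litters and from 68.6 to 113 CPM in MNR litters. The 12 pericentral genes had a median of 0.01, with 6 positive and 6 negative and 0 called in edgeR, beside 3 lower at an unadjusted p under 0.05 and 3 lower in DESeq2. Axin2 and Lgr5, targets of the Wnt signal around the central vein, stood at -0.60 and -0.69 on the log2 scale (adjusted p = 0.0898 and 0.114 by edgeR). The difference between these lists was not tested.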

How the data were processed

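Raw counts per transcript, 1 table per fetus, were deposited by the authors, who name FastQC, Bowtie2, DESeq2, edgeR and the build mm9 in the submitters' processing notes. How transcripts were counted, with or without strand, and how reads matching several were treated was not given in the sources used here. The series-wide gene table the authors deposited was left out, since no gene with a value in both had the summed transcript counts in every fetus. Counts were summed to genes with GENCODE M1 (NCBIM37, the same build), and 0.0788% to 0.154% of a fetus's counts matched no annotated transcript. Littermates were summed. Genes passing filterByExpr at a minimum count of 10 were tested with edgeR 4.0.16 in R 4.3.3 after TMM scaling. Alternatives used limma 3.58.1 and DESeq2 1.42.0. The labels name no batch. No pair of libraries looked like a repeat: chi-square per degree of freedom was 9.78 to 79.1 over the 90 pairs within groups. CPM of single fetuses uses TMM-scaled totals, and log2 CPM a prior count of 2. The ratios were tested by exact permutation of litters.

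The 9 genes and the lists were chosen with earlier results of these data known. The text names all 9 members, the relatives or partners Glul, Arg2 and Slc25a12, and from each related list the genes past the threshold or, where there were none, the 2 of smallest p, while Got1, Sirt3, Car5a, Cebpa, Gcgr and Nr3c1 were added after their values were seen. Some items that this rule names are not reported here. Transcripts were compared with blastn 2.17.0. On counts simulated for the comparison of MNR with control litters, with 200 of 17573 genes changed, edgeR called 66 of the 100 with a 1.4-fold change and 85 of the 100 with a 1.5-fold change, and 11 of its 162 calls were false.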

Additional observations from a re-analysis of the deposited data

How the results depend on the processing

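Arg1 and Gls2 were the members past the threshold in edgeR with all litters. Over 26 alternatives each of the 9 genes kept the sign of its log2 fold change. The number of members past the threshold was 2 or 3 in 18 of them. It was 0 with only fetus 1 of each litter, and 0 to 3 when single litters were left out (edgeR in both cases). The Asl to Ass1 ratio passed in all 15 of its alternatives, but those without single litters could hardly fail, since its groups did not overlap. The Arg1 to Cps1 log2 difference was 0.31 and did not pass with only fetus 1 of each litter (adjusted p = 0.119, exact permutation test), and it was 0.29 to 0.41 without single litters. The Gls2 to Glul log2 difference did not pass with only fetus 2 of each litter (0.34, adjusted p = 0.0556, exact permutation test) or without control fetus B_1, which held pancreatic transcripts (0.34, adjusted p = 0.0635, exact permutation test), nor without that fetus and MNR fetuses B_1 and E_1, chosen after seeing the data (0.32, adjusted p = 0.0794, exact permutation test), and it was 0.31 to 0.45 without single litters. The cause was not tested. Under other scalings the median log2 fold change of all genes lay between -0.03 and -0.00, and removing the 20 most abundant genes left 2 members past the threshold.

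The labels do not say whether litters of the groups share more than a letter. Deviations of same-lettered litters had correlations of -0.01 to 0.18, and 2 of 5 litters correlated best with their own letter. So few values cannot show whether a letter marks anything shared. With the letter as a replicate block 2 members passed, as without it, and the number of all genes called went from 117 to 232. That number was 1088 with limma voom on fetuses, 1128 with DESeq2, 178 with upper-quartile scaling, 24 with the hepatocyte covariate, 296 without control fetus B_1, 215 without the 3 fetuses with the most pancreatic transcripts, 0 and 499 with only fetus 1 or 2, and 0 to 843 without single litters. Nags, with 12155 counts over all fetuses, was the least deeply counted of the 9 genes. Intervals and p-values cover the spread between these 10 litters.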
